A study of Mus musculus with 6 samples.

Results

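The 8 transcripts described here are noncoding hosts of small nucleolar RNAs (snoRNAs): Snhg1, Snhg3, Snhg5, Snhg6, Snhg8, Snhg12, Gas5 and Epb41l4aos. They were picked by name out of the 53379 genes counted in each library, because earlier results had shown few of their reads in RNA recovered with an antibody against the RNA-binding protein hnRNPK. Their levels in that comparison are therefore given as a description and carry no test. The study asked which RNAs come down with hnRNPK in Min6, a mouse insulinoma cell line. It has 3 libraries of hnRNPK immunoprecipitated RNA (IP) and 3 libraries of total RNA, taken from 10% of the lysate. Cells of both groups were at passage 31, were grown in high-glucose medium and had received 25 mM glucose with 500 µM palmitic acid for 30 hours, which the labels name glucolipotoxicity. Each IP started from lysate with 200 µg of protein, and its beads were washed in 350 mM KCl. Cells without the treatment and an IP with a control antibody were not analysed here, so binding to hnRNPK and carry-over on beads cannot be told apart.

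A snoRNA guides the chemical modification of ribosomal or spliceosomal RNA. Box C/D snoRNAs direct 2′-O-methylation with the methylase fibrillarin, and box H/ACA snoRNAs direct pseudouridylation with dyskerin. In vertebrates most snoRNAs are cut out of the introns of a host gene, either a protein-coding gene (often one for a ribosomal protein or a translation factor) or a noncoding gene whose spliced exons have no known protein product. Many hosts start their transcripts with a C followed by a run of pyrimidines, the 5′ terminal oligopyrimidine (TOP) motif shared with ribosomal protein mRNAs. The spliced RNA of several noncoding hosts, Gas5 being the best studied, reaches ribosomes and is degraded by nonsense-mediated decay. hnRNPK binds single-stranded C-rich RNA through its KH domains.

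Start sequences of the hosts are shown because the pyrimidine run is a feature that many snoRNA hosts share. RefSeq (GRCm38.p6) start tables held 6 of the 8 genes, and Snhg6 and Epb41l4aos are named only. Each line gives the 30 bases from a start on the gene's own strand, 5′ to 3′, with the longest run of C or T that begins within the first 20 bases in capitals.
Snhg1, chr19:8723487-8723516: ctcaTTTTTCCTTgttcggggtaagtactc
Snhg5, chr9:88522868-88522897: gggctcgTTCTTTTacgacggagcctaaga
Snhg8, chr3:123508307-123508336: CTCTTTggctgcgatccgcctacgagtatg
Snhg12, chr4:132308678-132308707: TTTCTCgcttcatccgcggtccctgtctgt
Snhg3, chr4:132353657-132353686: gaCTTCCgggcgttacttaaggtataaata
Gas5, upstream start, chr1:161034601-161034630: gagCTCgacagcccggagccaaaggggcgg
Gas5, downstream start, chr1:161035166-161035195: CTTTCggagctgtgcggcattctgagcagg

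The run was 9 bases in Snhg1, a length reached by 6.02% of the 32851 starts in the table, and 7 bases in Snhg5, reached by 14.4%. Snhg8 and Snhg12 had runs of 6 bases (23.0% of starts), and both began at the annotated first base. Snhg3 and the downstream Gas5 start had 5 bases (37.8%), and the upstream Gas5 start had 3 bases (79.6%), against a median of 4 over all starts. Annotated first bases may lie some bases from the start used in these cells, which these libraries do not show.

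Library totals were 38764925 to 46222181 counts in the IP and 46185284 to 52735957 counts in total RNA, with 17471 to 21306 genes read in the IP and 21805 to 22625 in total RNA. The labels do not say that libraries came from separate cultures, so each p refers to variation among the libraries at hand, possibly technical. All 12 beta cell markers had reads, and 7 were higher and 5 lower in the IP, with a median log2 fold change (IP minus total RNA) of 0.32. Nkx2-2 (1.93 ± 0.08, SE), Pdx1 (1.52 ± 0.07) and Nkx6-1 (1.43 ± 0.09), transcription factors of beta cells, were among the higher, and Ins2 (−2.42 ± 0.25), an insulin gene, was among the lower. Ins2 averaged 1953 ± 524 CPM (counts scaled to library size) in the IP and 10471 ± 2728 CPM in total RNA (SD, n = 3 each). The 7 exocrine and duct markers summed to 0.118 to 1.21 CPM in the IP and 0.434 to 0.631 CPM in total RNA, with Cpa1, Prss2 and Amy2a5 at 0 reads in all 6 libraries.

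All 7 host transcripts with any read lay far lower in the IP than in total RNA. The 8 genes together had 45, 70 and 303 reads in IP libraries 1, 2 and 3, against 4982, 5665 and 5867 reads in total RNA libraries 1, 2 and 3. After scaling this was 1.33, 2.12 and 7.56 CPM in the IP and 80.0, 105 and 110 CPM in total RNA. IP library 3 held 72.5% of the 418 IP reads, and no IP library came near any total RNA library. The median log2 fold change of the 7 genes (IP minus total RNA) was −4.83, beside −0.07 over the 16929 genes tested. In the fit over all genes 33.6% of those tested passed an adjusted p threshold of 0.05 as lower and 28.9% as higher. All 7 were among the lower, which their choice fixes, so nothing is read from that count. In each of the 7 all IP libraries lay under all total RNA libraries. Over all genes tested, the 3 libraries of a group lay all above or all below those of the other in 71.4%.

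**Figure D1:**
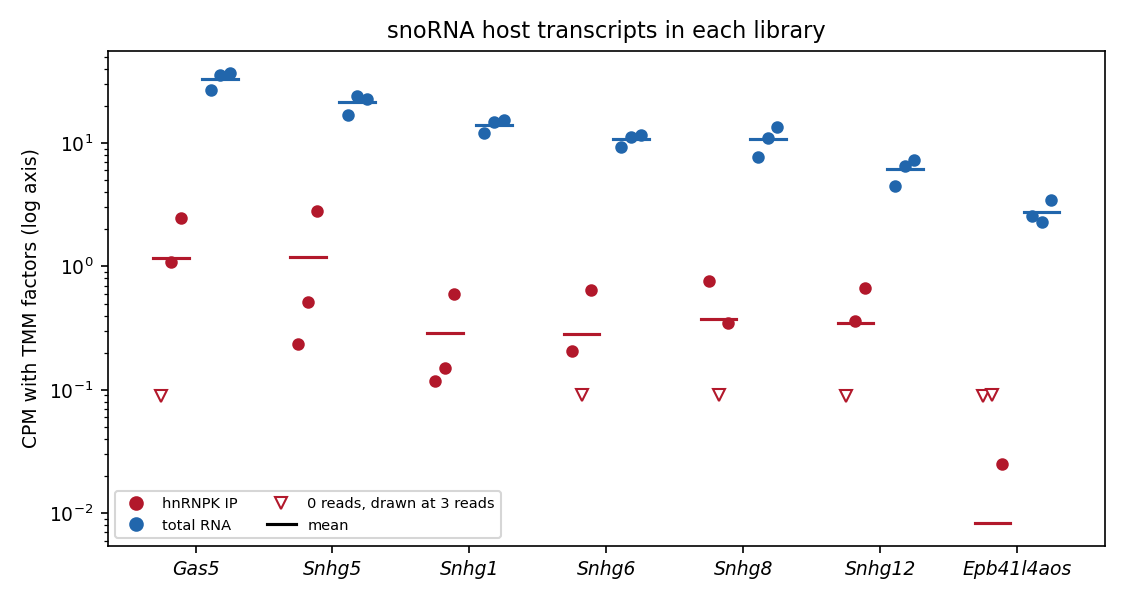
CPM (log axis) of the 7 host transcripts with reads in each of the 3 hnRNPK IP libraries (red, left) and the 3 total RNA libraries (blue, right). Bars are means, open triangles mark libraries with 0 reads and stand at the CPM of 3 reads, and in every gene all 3 IP libraries lie under all 3 total RNA libraries.

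Gas5 (ENSMUSG00000053332.13, chr1:161034422-161038539, plus strand, mm10) holds 10 annotated genes of snoRNA type, some of them overlapping, and is known as a growth arrest-induced noncoding RNA that can act as a decoy for the glucocorticoid receptor. It had 0, 36 and 98 reads in IP libraries 1, 2 and 3, against 1671, 1897 and 1948 reads in total RNA libraries 1, 2 and 3. It averaged 1.18 ± 1.22 CPM in the IP and 32.9 ± 5.31 CPM in total RNA, a log2 fold change of −4.77 ± 0.84 (SE), or 27.2-fold lower. The IP libraries differed widely among themselves, yet the highest was far below the lowest total RNA library.

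Snhg5 (ENSMUSG00000097195.9, chr9:88521050-88522929, minus strand) carries Snord50a and Snord50b. Its reads numbered 8, 17 and 113 in the IP, against 1056, 1299 and 1214 in total RNA. It averaged 1.19 ± 1.42 CPM in the IP and 21.3 ± 3.81 CPM in total RNA, a log2 fold change of −4.12 ± 0.75. IP library 3 stood above the other IP libraries, as it did for Gas5, and the groups did not overlap.

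Snhg1 (ENSMUSG00000108414.1, chr19:8723475-8726443, plus strand) is a host with 8 annotated snoRNA genes in its span. It had 4, 5 and 24 reads in the IP and 753, 797 and 812 reads in total RNA. Its CPM was 0.289 ± 0.268 in the IP and 14.1 ± 1.72 in total RNA, 46.5-fold lower on a log2 fold change of −5.54 ± 0.53. Of all tested genes, 0.591% had a lower log2 fold change.

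Snhg6 (ENSMUSG00000098234.7, chr1:9941959-9944118, minus strand) hosts Snord87. It had 7, 0 and 26 reads in the IP and 582, 605 and 617 in total RNA, a log2 fold change of −5.16 ± 0.77. Snhg8 (ENSMUSG00000104960.1, chr3:123507552-123508404, minus strand), the host of Snora24, had 26, 0 and 14 reads in the IP and 481, 590 and 709 in total RNA, a log2 fold change of −4.83 ± 0.80. For Snhg8, IP library 1 and not library 3 was the highest of its group. Snhg12 (ENSMUSG00000086290.8, chr4:132308623-132311024, plus strand) holds several H/ACA snoRNA genes and Snord99. It had 0, 12 and 27 reads in the IP and 279, 353 and 385 in total RNA, a log2 fold change of −4.10 ± 0.84. It and Snhg5 were nearest to 0 of the 7, and apart from each other by less than their SE.

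Epb41l4aos (ENSMUSG00000087590.2, chr18:33794892-33795986, plus strand), a short RNA read opposite to the Epb41l4a gene nearby, had the fewest reads in both groups of the 7 genes with reads. It had 0, 0 and 1 read in the IP and 160, 124 and 182 reads in total RNA. From the pooled reads it was 294-fold lower in the IP, with a 95% counting interval of 52.6 to 11652, which covers counting error only. The fitted log2 fold change of −7.85 depends on the small count added in the fit.

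Snhg3 (ENSMUSG00000085241.7, chr4:132348014-132353686, minus strand) was listed at 0 reads in all 6 libraries and was not tested. Of its 986 exonic bases, 294 are shared with genes on the same strand (135 with Rcc1 and 159 with the snoRNA gene Snora73a), 705 lie opposite a gene on the other strand and 135 are shared with no gene. Rcc1, the nucleotide exchange factor of the GTPase Ran, averaged 56.0 ± 3.92 CPM in the IP and 46.2 ± 4.41 CPM in total RNA and did not pass the test (log2 fold change 0.28 ± 0.11, adjusted p = 0.0575 with edgeR). It passed in 6 of 14 alternatives, and its log2 fold change ranged from −0.15, with library totals alone, to 0.46. No source used here states how reads in shared bases were assigned, so the zeros do not show that Snhg3 was absent. A count of 0 allows up to 3 reads, or 0.0748 to 0.0910 CPM per IP library and 0.0482 to 0.0565 CPM per total RNA library.

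The order of total RNA levels per kb depended on the length used. The first length, a median over a gene's annotated transcripts, left out those annotated as retained introns. Taking the median length of a gene's annotated transcripts, the levels followed the order Gas5 (65.6 ± 10.6 CPM per kb), Snhg5 (27.3 ± 4.88), Snhg1 (25.6 ± 3.12), Snhg8 (21.9 ± 5.78), Snhg6 (19.2 ± 2.17), Epb41l4aos (7.55 ± 1.61) and Snhg12 (6.66 ± 1.57). Gas5 stood above Snhg5 in every library, and Snhg6 above Epb41l4aos. All other neighbours in this order overlapped over the 3 total RNA libraries. Taking instead all exonic bases of a gene, which retained introns lengthen, mean levels followed the order Snhg8 (12.5 CPM per kb), Snhg5 (12.3), Snhg6 (9.36), Gas5 (8.75), Epb41l4aos (6.43), Snhg1 (4.74) and Snhg12 (2.54). Within the IP the reads were too few to order the genes: coefficients of variation were 92.7% to 173% in the IP and 11.3% to 26.4% in total RNA.

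IP library 3 set much of the IP level. Without it the log2 fold change was −5.99 for Gas5, −5.88 for Snhg5, −6.74 for Snhg1, −6.70 for Snhg6 and −5.13 for Snhg12, each more than 1.5 times further from 0 in fold. Snhg8 stayed at −4.82 without IP library 3 and stood at −5.83 without IP library 1. Epb41l4aos has no IP read left without library 3. The median of the 7 genes was −5.99 without IP library 3. What sets that library apart was not tested. It had the most genes with a read of the 3 IP libraries, 21306 against 18485 and 17471. It was also the deepest of them, with 46222181 counts against 39290750 and 38764925.

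**Figure D2:**
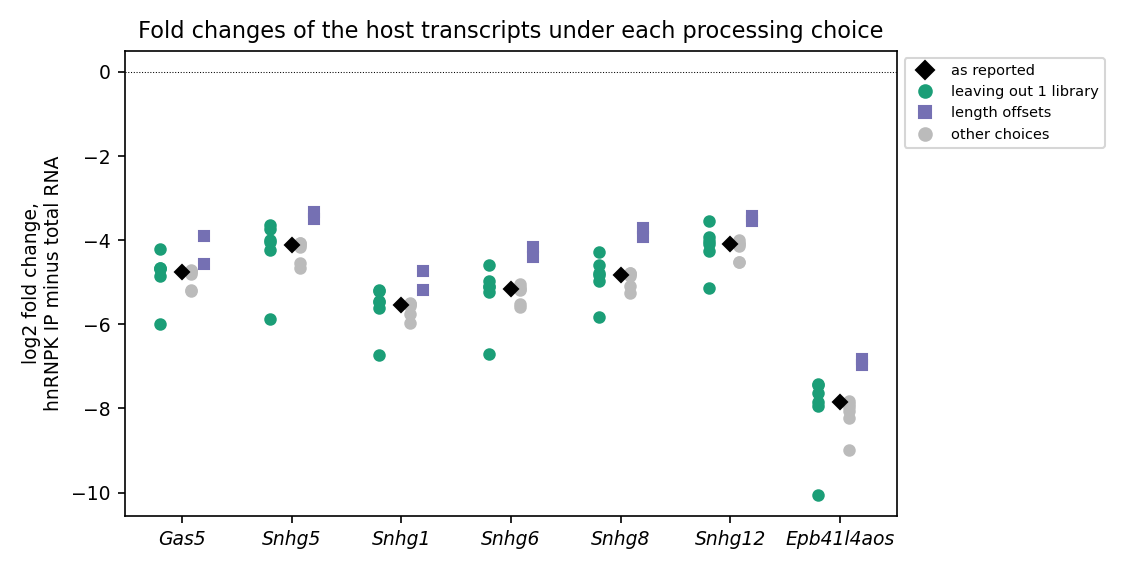
Log2 fold change (hnRNPK IP minus total RNA) of the 7 host transcripts as reported (black diamonds), with 1 of the 6 libraries left out (green), with offsets for gene or transcript length (violet squares) and under the other processing choices (grey). All values are below 0, and the lowest green point is the value without IP library 3 for every gene but Snhg8.

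The host transcripts are short and hold few C runs. Transcripts annotated as retained introns were left out, which are 14 of 18 for Snhg1 and 20 of 25 for Gas5. The longest of the rest was 430 to 1538 bases per host. This was under the median of 2817 bases over the 16907 tested genes with such a transcript sequence in GENCODE M21. C made up 17.1% to 22.3% of these transcripts, against a median of 24.4%, so all 8 were under the median. Runs of CCCC, counted on the transcript strand with overlapping matches included, occurred 0 times in Snhg1 and Snhg8. They occurred 1.504 times per kb in Gas5, 1.99 in Snhg5, 2.60 in Snhg12, 3.44 in Snhg3 and 3.68 in Snhg6, where the median gene had 4.20. Epb41l4aos alone exceeded that median, at 4.65 per kb. A CCCC match is a description of letters and not a binding site.

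The C-richest 30 bases of 4 transcripts, 5′ to 3′ with runs of at least 3 C in capitals, show the range. They are given because hnRNPK is known for binding C-rich RNA. GENCODE M21 transcripts were the source.
Snhg12, 19 C: gCCCgCCCCCCatcttCCCagCCCaccagc
Gas5, 16 C: cctatcgtgCCCgcggcaactccgCCCtcc
Snhg1, 13 C: ggctggCCCtacatcacagccttctcatcc
Snhg8, 11 C: gccgaaagccatcaactctgcaagagcgcc
Snhg12, with the C-richest of these stretches, was at a log2 fold change of −4.10, and Snhg8 and Snhg1, which have no CCCC, were at −4.83 and −5.54. Of the genes not printed, Epb41l4aos had 15 C in its C-richest 30 bases and the most CCCC per kb, 4.65. It had the lowest log2 fold change, −7.85, on 1 IP read. Snhg5 (12 C) was at −4.12 and Snhg6 (13 C) at −5.16. With so few genes, chosen for the fold change, no relation was computed.

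**Figure D3:**
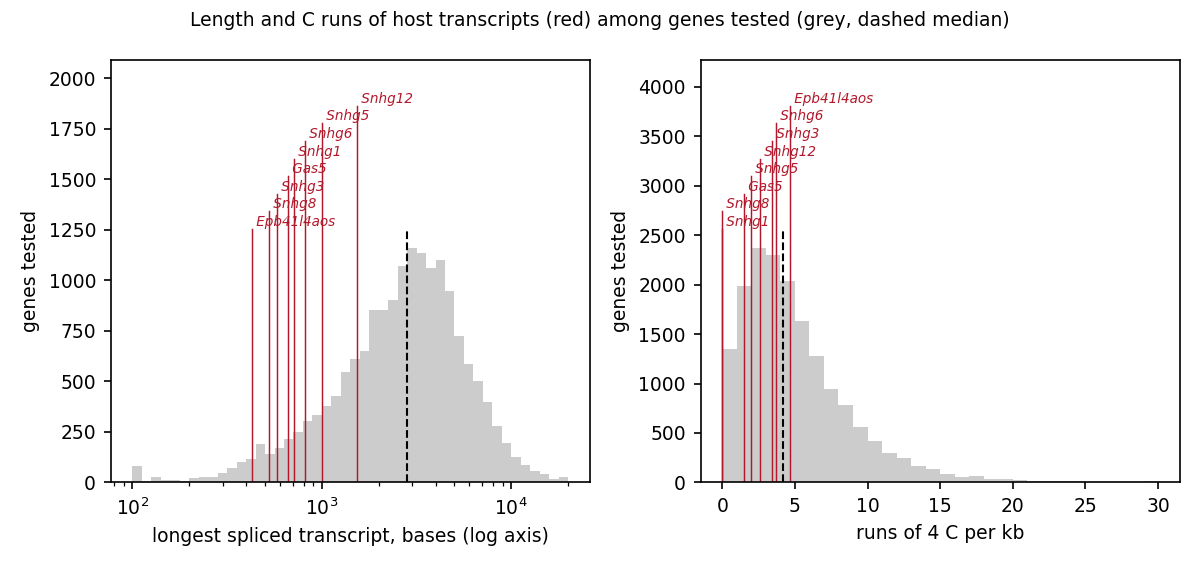
Number of tested genes (grey bars) by the length of the longest annotated transcript (left, log axis) and by its CCCC runs per kb (right). Retained-intron transcripts were left out, and values above the right axis end are placed in the last bin. The 8 host transcripts are red lines, and the median of tested genes is dashed. All 8 lie left of the length median of 2817 bases, and 7 of 8 lie left of the CCCC median of 4.20 per kb.

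Because the host transcripts are short, log2 fold changes were also fitted with an offset for transcript length, a step added after the values were seen. The 7 genes then ranged from −6.96 for Epb41l4aos to −3.42 for Snhg12, with a median of −3.93. Snhg1 was at −4.74 and Gas5 at −3.89. The offset thus moved each gene towards 0 by less than 1 on the log2 scale, and all 7 stayed far under the median of all genes, which was 0.05 in that fit.

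Genes whose profile over the 6 libraries was most like a host transcript's (smallest Euclidean distance of log2 CPM) were ribosomal protein genes in several cases. Rpl39 was nearest to Snhg1, Rps28 to Snhg8 and Rpl37a to Snhg12. Rps10 and Rps23 were the next after C1qtnf4 for Snhg6 and after Ccdc114 for Epb41l4aos. Magoh, an exon junction complex subunit, was nearest to Snhg5, and Endog, a mitochondrial nuclease, to Gas5. Rpl39 averaged 0.274 ± 0.346 CPM in the IP and 9.12 ± 2.62 CPM in total RNA, and Magoh averaged 1.31 ± 1.25 CPM in the IP and 21.1 ± 3.68 CPM in total RNA.

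Genes next to the host transcripts in the genome went in both directions, as all tested genes did (28.9% higher and 33.6% lower). This comparison was also added after values were seen. Of the 18 nearest or overlapping protein-coding genes, 15 were tested, of which 5 were higher and 6 lower in the IP and 4 did not pass, with a median log2 fold change of 0.28. Zbtb37, a zinc finger gene on the strand opposite Gas5 that overlaps its 5′ end, averaged 63.6 ± 26.1 CPM in the IP and 7.95 ± 0.184 CPM in total RNA, a log2 fold change of 3.00 ± 0.28 (edgeR adjusted p = 4.2e-05). Phactr4, next to Snhg3, was higher by 2.54 ± 0.09 on the log2 scale. Slc3a2, the heavy chain of an amino acid transporter, starts 105 bases from Snhg1 on the opposite strand and was lower, at −1.23 ± 0.19, or between −1.66 and −0.53 over the alternatives. Trnau1ap, which lies 738 bases from Snhg12 and serves selenocysteine incorporation, was lower, at −2.65 ± 0.29. Gas5 and Zbtb37 thus lay on opposite sides of 0 at the same locus, and their annotated exons share no base. Mcmdc2, which lies opposite 127 exonic bases of Snhg6, averaged 0.337 ± 0.207 CPM in the IP and 0.192 ± 0.154 CPM in total RNA and did not pass. Without a known strand setting, reads in those bases cannot be told apart.

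Other noncoding snoRNA hosts varied. GENCODE M21 has 17 other genes not typed as protein-coding that hold a Snord, Snora or Scarna gene on their strand. Hosts of snoRNA genes with other symbols were not searched for, here or in the protein-coding lists below. Of the 17, 16 were in the files and 13 were tested. Of these, 7 were lower (33.6% over all genes tested), 2 higher (28.9%) and 4 not past the threshold. The median log2 fold change was −1.65. Cct6a, a gene for a chaperonin subunit that this annotation types as a processed transcript, was among the 7 lower, at −0.57 ± 0.09. It had the highest total RNA level of the list, at 189 ± 3.43 CPM. Zfas1, a host of C/D snoRNAs, averaged 0.449 ± 0.460 CPM in the IP and 6.39 ± 2.05 CPM in total RNA (log2 fold change −3.83 ± 0.69, edgeR adjusted p = 0.00164). Without IP library 1 it was at −5.08. 2410006H16Rik averaged 1.87 ± 1.21 CPM in the IP and 31.8 ± 10.7 CPM in total RNA, at −4.07 ± 0.48, and −4.82 without IP library 3. Snhg14, the long host of imprinted C/D snoRNA clusters, was lower too, at 5.50 ± 0.385 CPM in the IP and 14.97 ± 0.844 CPM in total RNA, a log2 fold change of −1.45 ± 0.16.

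A pair of noncoding hosts went the other way. Snhg18 had 404, 252 and 606 reads in the IP against 189, 173 and 182 in total RNA, a log2 fold change of 1.84 ± 0.28 (edgeR adjusted p = 0.000582). 2700038G22Rik averaged 14.6 ± 3.31 CPM in the IP and 3.15 ± 0.409 CPM in total RNA, at 2.21 ± 0.23. In both, every IP library was above every total RNA library. Noncoding genes outside these lists, which hold no Snord, Snora or Scarna gene, formed a class chosen after values were seen. Genes that hold snoRNA genes with other symbols were not removed from it. Among its 1491 tested genes, 7.38% were lower, 21.3% were higher, and the median log2 fold change was 0.51. The counts behind these shares, 110 lower and 317 higher, moved to 58 to 213 lower and 206 to 377 higher when 1 library was left out, with the fewest lower without total RNA library 3 and the most without IP library 3. Rab26os, again from the list of other noncoding hosts, had 0 IP reads against 44 in total RNA. It was at least 9.26-fold lower, counting 3 reads over the group. Its call was lost without total RNA library 2 or 3 or with the replicate number as a block.

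Ribosomal protein genes that host snoRNAs were lower as a group. Of 24 tested, 21 were lower (33.6% over all genes tested), 0 were higher (28.9%) and 3 did not pass with edgeR. The median log2 fold change was −3.73. Without adjustment 23 were lower and 0 higher at p under 0.05, as with DESeq2. Rpl32 averaged 4.74 ± 4.07 CPM in the IP and 203 ± 44.6 CPM in total RNA, at −5.40 ± 0.62, and −6.37 without IP library 3. Rpl4, among the least reduced of those named, averaged 169.9 ± 39.3 CPM in the IP and 1014 ± 86.5 CPM in total RNA, at −2.58 ± 0.17. Reads of these genes can be shared with processed pseudogenes, and how such reads were treated is not given. Ribosomal protein genes outside this list were not counted as a class. Of those named above by profile, Rps28 (−4.89), Rps10 (−4.82), Rpl37a (−4.78) and Rps23 (−5.80) are outside it.

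Other protein-coding hosts spread over both directions. Of 43 tested, 25 were lower (33.6% over all genes tested), 10 higher (28.9%) and 8 not past the threshold. Their median log2 fold change was −0.40. The 4 lowest of those with at least 5 CPM were Eef1b2, an elongation factor subunit (−4.39 ± 0.31), Rack1, a ribosome-bound scaffold (−3.95 ± 0.14), Tpt1, a translationally controlled protein (−3.49 ± 0.21), and Rabggtb, a subunit of the enzyme that attaches lipid groups to Rab GTPases (−2.84 ± 0.15). Zbed3 was the highest, averaging 273 ± 19.9 CPM in the IP and 45.0 ± 1.60 CPM in total RNA, at 2.60 ± 0.09. Srcap, a chromatin remodelling ATPase, followed at 1.92 ± 0.27. Carrying a snoRNA gene thus went with values on either side of 0.

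**Figure D4:**
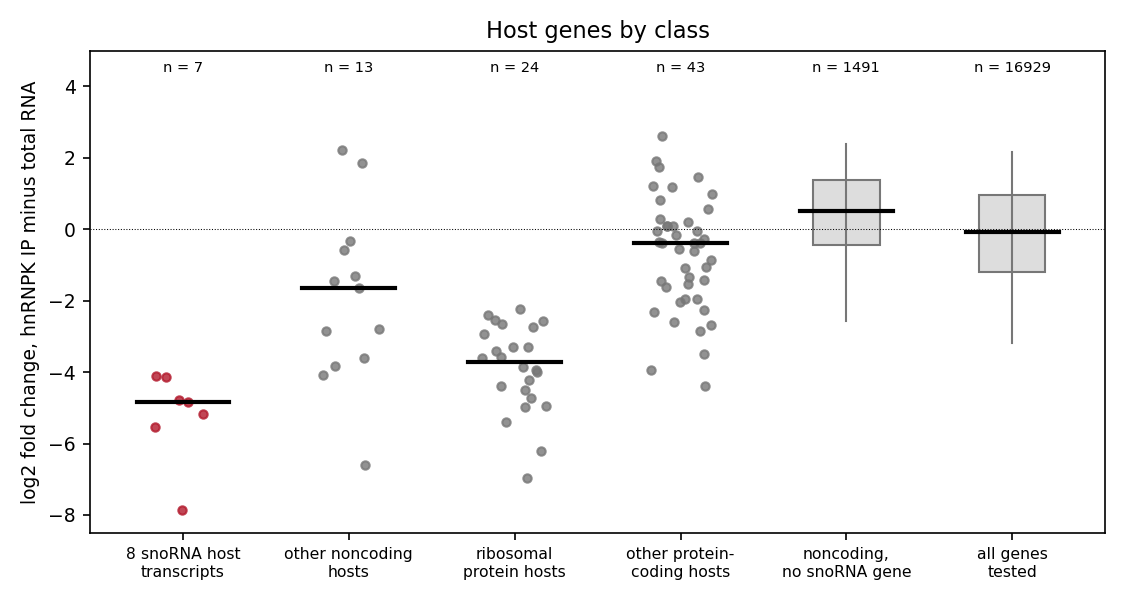
Log2 fold change (hnRNPK IP minus total RNA) of each tested gene in 4 classes of snoRNA hosts (points). Boxes (quartiles) and lines (5th to 95th percentile) show other noncoding genes, holding no Snord, Snora or Scarna gene, and all tested genes. Black bars are medians, at −4.83, −1.65, −3.73, −0.40, 0.51 and −0.07 from left to right.

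TOP mRNAs of genes other than Rpl and Rps genes were mostly lower. Of 15 tested, 13 were lower (33.6% over all genes tested), 1 was higher (28.9%) and 1 did not pass. The median log2 fold change was −2.45. Eef1a1, the elongation factor that delivers aminoacyl-tRNA, averaged 412 ± 61.5 CPM in the IP and 2362 ± 53.05 CPM in total RNA, at −2.52 ± 0.12. Pabpc1, the poly(A)-binding protein, was the exception, at 1088 ± 9.82 CPM in the IP and 777 ± 69.4 CPM in total RNA (log2 fold change 0.49 ± 0.08, edgeR adjusted p = 0.0013). With library totals alone it was at 0.050 and did not pass. Eef1b2, Eef2, Tpt1 and Rack1 are in both this list and that of protein-coding hosts.

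mRNAs for the proteins of snoRNA particles were lower as well. All 4 box C/D core proteins were lower with a median of −1.52: the methylase Fbl at −3.13 ± 0.71, Nop58 at −1.55 ± 0.13, Snu13 at −1.49 ± 0.16 and Nop56 at −1.32 ± 0.11. Nop56 and Nop58 are also in the list of other protein-coding hosts. All 4 box H/ACA core proteins were lower with a median of −3.49: Nhp2 at −4.11 ± 0.75, Nop10 at −3.87 ± 0.31, Gar1 at −3.12 ± 0.23 and the pseudouridine synthase Dkc1 at −1.01 ± 0.17. Without IP library 3 Fbl was at −3.92 and Nhp2 at −4.92, and Dkc1 did not pass with the transcript length offset (−0.32). None of these 8 was higher with edgeR, at an unadjusted p under 0.05 or with DESeq2. Of 10 assembly factors 7 were lower, 1 was higher and 2 did not pass, beside 33.6% lower and 28.9% higher over all genes tested. The higher was Naf1, an H/ACA assembly factor, with 55.6 ± 6.03 CPM in the IP and 13.3 ± 0.781 CPM in total RNA, at 2.07 ± 0.13.

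Nonsense-mediated decay factors were split, as were all tested genes (28.9% higher and 33.6% lower). Of 10 factors 4 were higher, 4 lower and 2 not past the threshold, with a median of −0.08. Among the higher were Smg6 (1.66 ± 0.12), the kinase Smg1 (1.18 ± 0.13) and the helicase Upf1 (0.42 ± 0.13), though Upf1 was at −0.020 with library totals alone and at −0.21 with the transcript length offset, and its call was lost without IP library 1 or total RNA library 2 or 3. Upf3b (−2.17 ± 0.10), Upf3a (−1.98 ± 0.16), Smg8 (−1.07 ± 0.21) and Upf2 (−1.06 ± 0.10) were lower.

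The snoRNA genes inside the host transcripts are counted as separate features, but 27 of the 30 on the hosts' strand overlap annotated host exons. Reads of host RNA, whose level chose the hosts, and of mature snoRNA cannot be told apart there, so the values are given as a description with no test. Of the 30, 20 had a read in total RNA and 2 in the IP. The 16 with Snord or Snora symbols summed to 0, 0 and 0 reads in the IP, against 39, 38 and 35 reads in total RNA (0.626, 0.705 and 0.659 CPM). Of these 112 total RNA reads, 111 were of the 14 genes that overlap host exons. All 30 together had 8, 0 and 4 reads in the IP and 147, 110 and 98 reads in total RNA. The snoRNA genes share 622 of the 2969 exonic bases of Snhg1 and 669 of the 3760 of Gas5.

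The snoRNA genes with the most to show are printed from their GENCODE M21 transcripts, 5′ to 3′. Capitals mark a C box searched as TGATGA near the 5′ end and a D box searched as CTGA near the 3′ end, or, in the H/ACA RNA Snora24, the ACA box near the 3′ end, all on the gene's strand. C and D boxes were marked only where both were found. Snord78 has CTGA near its 3′ end but no TGATGA, so it carries no capitals. By this search 68.7% of 99 Snord genes and 76.2% of 42 Snora genes held their boxes.
Snord78 (Gas5), chr1:161036984-161037049: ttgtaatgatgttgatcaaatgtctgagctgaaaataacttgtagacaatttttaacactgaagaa
Snord47 (Gas5), chr1:161038082-161038158: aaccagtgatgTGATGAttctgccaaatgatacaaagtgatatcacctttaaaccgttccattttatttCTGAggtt
Gm23212 (Gas5), chr1:161036682-161036741: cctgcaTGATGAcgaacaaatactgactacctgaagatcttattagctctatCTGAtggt
Gm22680 (Snhg1), chr19:8725341-8725409: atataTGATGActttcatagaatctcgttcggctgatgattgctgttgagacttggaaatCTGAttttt
Gm24453 (Snhg1), chr19:8724868-8724943: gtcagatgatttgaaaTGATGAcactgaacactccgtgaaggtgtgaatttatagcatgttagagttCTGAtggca
Snord50a (Snhg5), chr9:88521529-88521600: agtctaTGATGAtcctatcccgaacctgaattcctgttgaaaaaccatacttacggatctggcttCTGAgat
Snord50b (Snhg5), chr9:88521797-88521868: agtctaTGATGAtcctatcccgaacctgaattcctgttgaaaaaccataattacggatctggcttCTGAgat
Snora24 (Snhg8), chr3:123507937-123508066: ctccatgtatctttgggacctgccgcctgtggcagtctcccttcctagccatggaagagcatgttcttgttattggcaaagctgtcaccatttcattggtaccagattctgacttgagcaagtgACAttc

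Snord78 inside Gas5 was read most, with 0, 0 and 0 reads in the IP against 27, 29 and 26 reads in total RNA. It was at least 17.3-fold lower in the IP, counting 3 reads over the IP group. Gm22680 inside Snhg1 had 0, 0 and 0 reads in the IP against 15, 12 and 16 in total RNA and was at least 9.05-fold lower. These were the 2 genes of the 30 with enough reads to enter the fit. All reads of both were in total RNA, where their hosts also had most of theirs.

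Other snoRNA genes had too few reads to enter it. Gm24453 had 0, 0 and 0 reads in the IP against 16, 16 and 7 in total RNA, and Gm23212 had 0, 0 and 0 against 16, 11 and 8. Snora24, in Snhg8, had 0, 0 and 0 in the IP against 8, 1 and 4 in total RNA. Gm25789, at the 3′ end of Gas5, was the exception: it had 8, 0 and 2 reads in the IP against 7, 2 and 0 in total RNA, so its groups overlapped. Its 8 reads were in IP library 1, which had 0 reads for Gas5 itself. Snord50a and Snord50b of Snhg5 share 71 of 72 bases and differ by C50A (Snord50a base, position from 1 at its 5′ end, Snord50b base), so their 8 and 3 reads in total RNA, with 0 in the IP, may have been split between the copies.

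**Figure D5:**
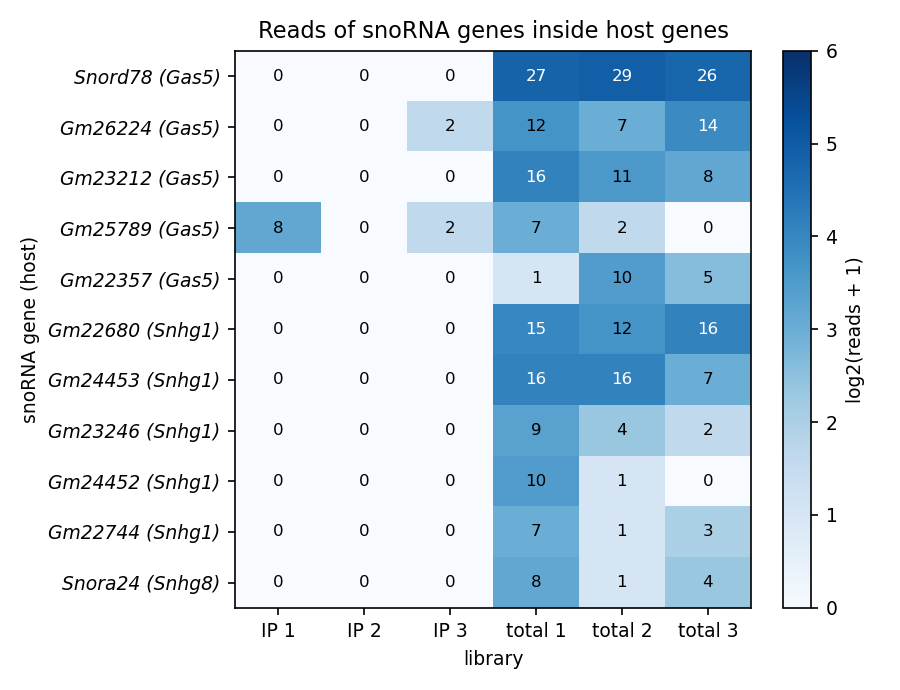
Reads in each library for the 11 snoRNA genes inside host transcripts that had at least 10 reads in all (host in parentheses), with hnRNPK IP libraries left and total RNA libraries right and colour giving log2(reads + 1). The IP cells are 0 except 2 reads for Gm26224 in library 3 and 8 and 2 reads for Gm25789 in libraries 1 and 3.

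Over all 149 Snord, Snora and Scarna genes in the files, 98 had a read and 25 were tested. Of the 25, 11 were lower (33.6% over all genes tested) and 2 higher (28.9%) in the IP, with a median log2 fold change of −1.85. Their reads summed to 193 to 309 in the IP and 909 to 1047 in total RNA. snoRNA reads were thus few in both groups, and in the IP they were not at 0 across the genome as they were for the 16 symbols inside the host transcripts.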

How the data were processed

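Values are whole-number counts of reads per gene, as the authors deposited them, with 1 table per library and no normalization. Per the submitters' processing notes, reads were aligned to mm10 with TopHat2 and counted with featureCounts. No source used here states versions, the strand setting, read pairing or the handling of multiply aligned reads. Identifiers were matched without version numbers to GENCODE M21 (53274 of 53379, with 105 unmatched). No column was left without a sample.

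Groups came from the sample titles. Counts were fitted in R 4.3.3 with edgeR 4.0.16 (TMM factors, filterByExpr with a minimum count of 10 and a minimum total of 15, glmQLFit and glmQLFTest on the group) over 16929 genes. A gene passed at a Benjamini-Hochberg adjusted p under 0.05. CPM uses TMM factors. Levels are mean ± SD of 3 libraries, and log2 fold changes, given as IP minus total RNA, carry ± SE. Distances between profiles used a prior count of 2. PCR reads without molecular identifiers are not independent molecules, so intervals and the floor of 3 reads cover counting error only. The fit was tested on simulated counts.

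The host genes, gene lists and tests were chosen with earlier results of these data known. The rule for named genes took the 8 host transcripts, snoRNA genes inside them with at least 10 reads, up to 10 other noncoding hosts by total RNA CPM, up to 4 hosts at each end of each protein-coding list (at least 5 CPM), the snoRNP, decay and TOP genes, and the 2 nearest profiles per host transcript. Snord47, Snord50a, Snord50b, Rab26os, the beta cell factors beside Ins2 and the neighbouring genes were named after their values were seen. Some genes the rule took are left out of the text. Alternatives were DESeq2 1.42.0 (Wald test or its size factors), library totals, no filter, a replicate block, halved counts (in case both mates of a pair were counted), length offsets (lowess span 0.3) and leaving out each library. Marker lists of other islet and of stromal, endothelial and immune cells were also counted.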

Additional observations from a re-analysis of the deposited data

How the results depend on the processing

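All 7 host transcripts kept a log2 fold change below 0 under the 14 alternatives run, with ranges of −6.74 to −4.74 for Snhg1, −5.88 to −3.32 for Snhg5, −6.70 to −4.17 for Snhg6, −5.83 to −3.71 for Snhg8, −5.13 to −3.42 for Snhg12, −5.99 to −3.89 for Gas5 and −10.0 to −6.82 for Epb41l4aos. With library totals in place of TMM factors the median of all genes moved by −0.43, and 32.1% of all calls were higher in the IP, against 46.3% as reported. The number of TOP mRNAs higher in the IP, 1 as reported, was 0 with library totals and 2 with the DESeq2 Wald test, and 1 to 2 when 1 library was left out (2 without total RNA library 1). Among genes called under either of the settings compared, directions turned for Cct6a with the transcript length offset (0.093), for Upf1 with library totals (−0.020) and with that offset (−0.21), and for Smg5 (−0.24) and Eif4b (−0.26) with library totals. Uncalled values that crossed 0 were those of AA465934 (−0.75 to 0.83 over the alternatives), Smg9 (−0.78 to 0.31) and Rcc1 (−0.15 to 0.46), and with other settings Smg5 (−0.057, gene length offset) and Eif4b (−0.056, transcript length offset). Of the other noncoding genes, which hold no Snord, Snora or Scarna gene, 317 were higher and 110 lower as reported. With library totals 196 were higher and 166 lower, and with the gene length offset 511 were higher. When 1 library was left out, 206 to 377 were higher and 58 to 213 lower. Among single genes other than the 7, calls were kept or stayed absent in 1004 comparisons, lost in 14 and gained in 24. The cause of these changes was not tested. Same-numbered libraries did not deviate together (r = 0.000874, −0.0709 and 0.12). With 3 libraries per group this cannot decide whether the numbers pair them, which the labels do not say. The replicate block gave 4384 genes higher and 5364 lower, against 4892 and 5680 without it, and a median of −5.20 for the host transcripts. The difference in mean log2(CPM + 1) of the summed reads of Snord and Snora genes inside the hosts was −0.73, and −0.009 over those that overlap no host exon, which had 1 read. Depth limits the IP side, where 4, 4 and 1 of the 8 genes had 0 reads in libraries 1, 2 and 3. In the other marker lists, 2 of 5 tested islet genes were lower, and 3 of 6 tested stromal, endothelial and immune genes were higher, summing to 7.04 to 9.69 CPM in the IP and 3.00 to 4.47 CPM in total RNA.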
